A study of Agaricus bisporus with 8 samples.

Results

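Irrigated mycelium of Agaricus bisporus var bisporus (H97), the button mushroom, was compared between day 7 and day 3. The 8 samples were the irrigated channels of 8 2-colour arrays, 4 from day 7 and 4 from day 3, out of 16 channels in all. The other 8 channels held RNA of mycelium under drought. The irrigated samples of each day were 2 from mycelium on plain water and 2 from mycelium on water with 50 µM riboflavin. The groups were thus riboflavin day 7, water day 7, riboflavin day 3 and water day 3, with 2 arrays each. All mycelium had grown on hay in gas-tight mesocosms (closed model ecosystems) and had been irrigated for 3 weeks before drought was imposed on the other channel's mycelium, and day 7 and day 3 are counted from that point. Agar-grown hyphae were the inoculum, and total RNA was extracted. The irrigated RNA was labelled with the red dye Cy5 in replicate 1 of every group and with the green dye Cy3 in replicate 2, so replicate number and dye are 1 variable. Titles count 2 replicates per group, but every description names biological replicate 1, and no label says that the arrays of a group came from separate mesocosms. The p-values therefore rest on the spread among these arrays alone, and part of it may be technical.

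Agaricus bisporus feeds on dead plant matter that other microbes have begun to break down. Its vegetative mycelium is a network of hyphae that secretes laccases and manganese peroxidase, enzymes that attack lignin, and takes up the sugars released from the plant cell wall. Riboflavin (vitamin B2) is the precursor of the flavin cofactors FMN and FAD, which carry electrons in many enzymes, succinate dehydrogenase among them. The irrigated mycelium is the control for drought on each array, and setting its day 7 against its day 3 asks what differs between these days while water is supplied. A difference between mesocosms cannot be told apart from one of time.

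The 8 channels were dim. Of the 10413 probes, between 226 and 720 were well above background in the irrigated channel of an array (a call of the scanner software), and 9011 were above it on no array. Probes above background numbered 407 ± 150 on the day 7 arrays and 534 ± 141 on the day 3 arrays (SD, n = 4 each). That difference did not pass the exact two-sided permutation test (p = 0.286, where 0.0286 is the smallest p that 4 against 4 arrays allow). By dye, the Cy5 channels had 583 ± 92.3 and the Cy3 channels 359 ± 105 probes above background (SD, n = 4 each, exact permutation p = 0.0286). The 3 brightest probes of a channel made up between 50.4% and 88.9% of its summed net signal (signal minus local background). They read AGABI2DRAFT_75870, AGABI2DRAFT_75612 and AGABI2DRAFT_187811, except on both riboflavin replicate 2 arrays, where AGABI2DRAFT_191238 was brighter than AGABI2DRAFT_187811. Their share averaged 74.6% ± 16.6 on day 7 and 70.1% ± 17.9 on day 3 (SD, n = 4 each, exact permutation p = 0.657), and leaving out water day 7 replicate 1 turned the sign of this difference to -0.27 percentage points. Without riboflavin day 3 replicate 2 it was -2.07 percentage points.

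**Figure D1:**
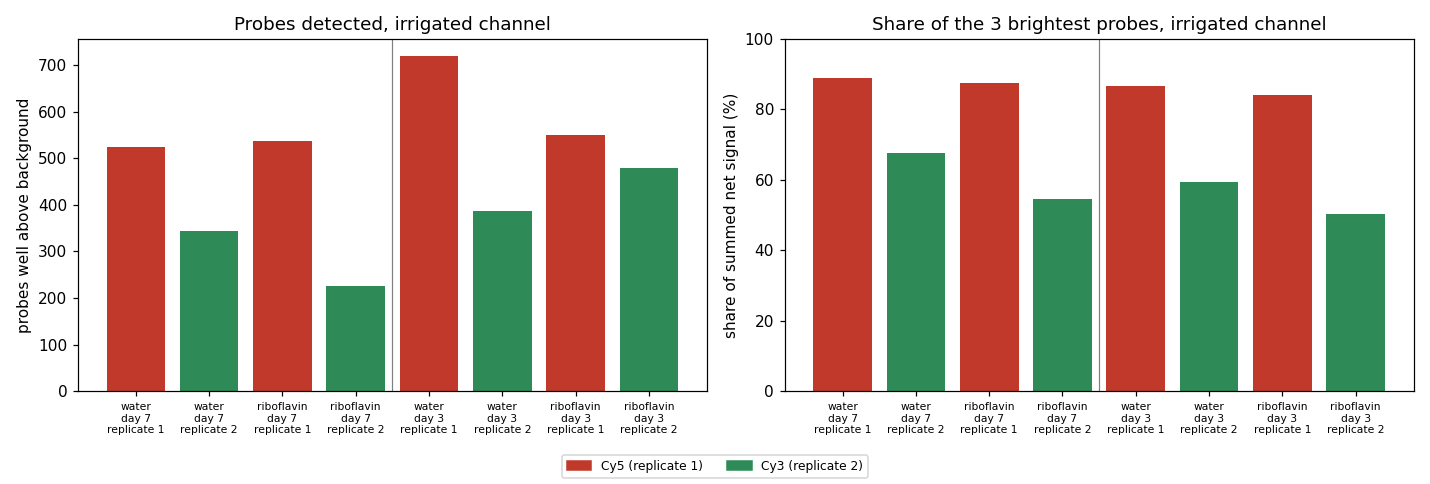
Probes well above background (left, number) and share of the summed net signal taken by the 3 brightest probes (right, percent) in the irrigated channel of each array, with day 7 left of day 3. The 4 Cy5 bars are taller than the 4 Cy3 bars on both sides, and the 2 days overlap.

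Testing was limited to genes whose probe was well above background in the irrigated channel of both arrays in 1 group or more, which kept 420 of the 10413 probes. Levels are log2 intensities after background correction with an offset of 50 and quantile normalization over the 8 irrigated channels. The median probe of every array lay at 5.93, so that levels near 6 are close to background, and differences of dim genes are understated by the offset. The reference table gave 419 of the 420 genes a locus tag but only 4 a symbol and none a function, so most genes below are known by number alone.

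No gene passed the test between day 7 and day 3 of irrigated mycelium. Limma called 0 of the 420 genes (0%) at an adjusted p under 0.05, and the smallest adjusted p was 0.685. At an unadjusted p under 0.05 there were 24 genes (5.71%), 17 of them higher on day 7 (4.05%) and 7 lower (1.67%). The fitted log2 differences lay between -1.70 and 2.03, with a median of -0.011, and 378 of the 420 were within 0.5 of 0. For 316 genes the 95% interval of the difference lay within 1 log2 unit of 0, which bounds them below a 2-fold difference on this scale. For the other 104 genes the interval reached further, so the spread of these arrays leaves room for a difference of that size.

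**Figure D2:**
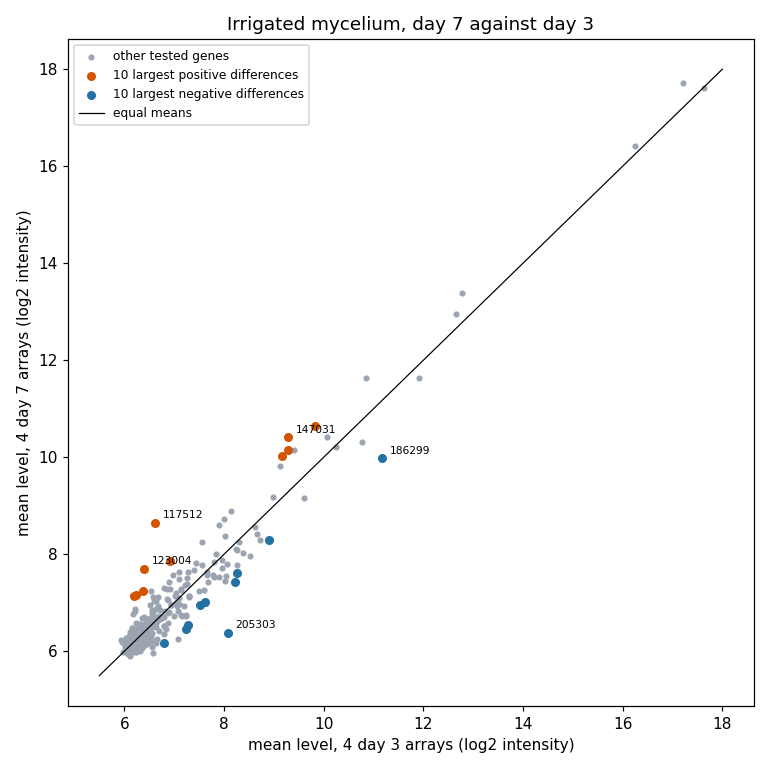
Mean log2 level over the 4 day 7 arrays (y axis) against the mean over the 4 day 3 arrays (x axis) for the 420 tested genes, with the line of equal means. Genes lie along the line from about the background level up to the 3 brightest genes; the 10 largest positive and 10 largest negative differences among genes detected on at least 2 arrays of each day are coloured.

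The differences between the 2 arrays of a group, which also differ in dye, were as large as the differences between days. The median size of the log2 difference between the 2 arrays of a group was 0.25 in riboflavin day 7, 0.16 in water day 7, 0.23 in riboflavin day 3 and 0.21 in water day 3. Taking day 7 minus day 3 between arrays of the same supplement and the same dye gives 4 pair differences per gene. These leave out any dye effect, which the differences within a group include. Their median size was 0.16 in riboflavin replicate 1, 0.12 in riboflavin replicate 2, 0.18 in water replicate 1 and 0.23 in water replicate 2. Of the 417 genes measured on all arrays, 50 (12.0%) were higher on day 7 in all 4 pairs and 22 (5.28%) lower in all 4.

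Levels of the 2 days were close within a supplement and dye. Across the tested genes, which are not independent, the day 7 and day 3 arrays of a pair correlated at Pearson's r of 0.88 to 0.97. The 2 arrays of a group, which differ in dye, correlated at 0.76 to 0.95. Both riboflavin replicate 2 arrays stood apart. They correlated at 0.97 with each other, at 0.52 to 0.82 with the other 6 arrays, and those 6 at 0.73 to 0.95 among themselves. Their irrigated-over-drought ratios also ran against those of riboflavin replicate 1 (r of -0.50 on day 7 and -0.41 on day 3, against 0.60 and 0.41 in water). Since the labels name the dye of each RNA, the channel they give was kept. Without both riboflavin replicate 2 arrays, limma still called 0 genes, with 44 at an unadjusted p under 0.05, and with their other channel taken as the irrigated one it called 0, with 20.

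The pair differences were most alike between the Cy5 pairs. Across 418 genes the differences of water replicate 1 and riboflavin replicate 1 correlated at 0.54. Those of the Cy3 pairs, water replicate 2 and riboflavin replicate 2, correlated at 0.23 over 419 genes, and those of water replicate 1 and water replicate 2 at -0.21 over 417. Both members of the first 2 correlations share a dye and a replicate number.

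The largest positive difference belonged to AGABI2DRAFT_117512. Values of the 4 arrays of a day are given here and below in the order water replicate 1, water replicate 2, riboflavin replicate 1 and riboflavin replicate 2. Its levels were 8.41, 9.57, 10.09 and 6.52 on day 7, against 6.67, 6.68, 7.08 and 6.05 on day 3. The day 7 arrays other than riboflavin replicate 2 were above every day 3 array, and the riboflavin replicate 2 array of day 3 was not well above background. Before normalization its net signals came to 480.5, 385, 1119 and 40.8 on day 7, and to 46.8, 57.0, 117 and 23.0 on day 3. The log2 difference was 2.03 ± 0.76 (SE, 4 arrays a day, limma adjusted p = 0.685), with a 95% interval of 0.13 to 3.93, and it was positive in all 4 pairs.

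AGABI2DRAFT_123004 followed with a log2 difference of 1.30 ± 0.37 (SE, limma adjusted p = 0.685). It had 7.77, 8.03, 8.46 and 6.54 on day 7 and 6.53, 6.42, 6.50 and 6.17 on day 3. Its 4 day 7 levels all lay above its 4 day 3 levels, although riboflavin replicate 2 of day 7 (6.537) was barely above the highest day 3 array (6.531). In the drought channel of the same arrays the day difference of this gene was 0.07 ± 0.40 (SE).

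AGABI2DRAFT_55578 and AGABI2DRAFT_133899 were well above background on all 8 arrays. The first had 8.29, 7.52, 8.94 and 6.66 on day 7 and 7.31, 6.73, 7.24 and 6.36 on day 3 (log2 difference 0.94 ± 0.30). Its day 7 level exceeded the day 3 level in each pair, while the range of the 2 days overlapped. The second had 10.80, 10.01, 10.77 and 8.51 on day 7 and 10.33, 8.40, 9.71 and 8.25 on day 3 (log2 difference 0.85 ± 0.26). It too was higher in each pair with overlapping days, and its lowest array on each day was riboflavin replicate 2. The limma adjusted p of both was 0.685.

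**Figure D3:**
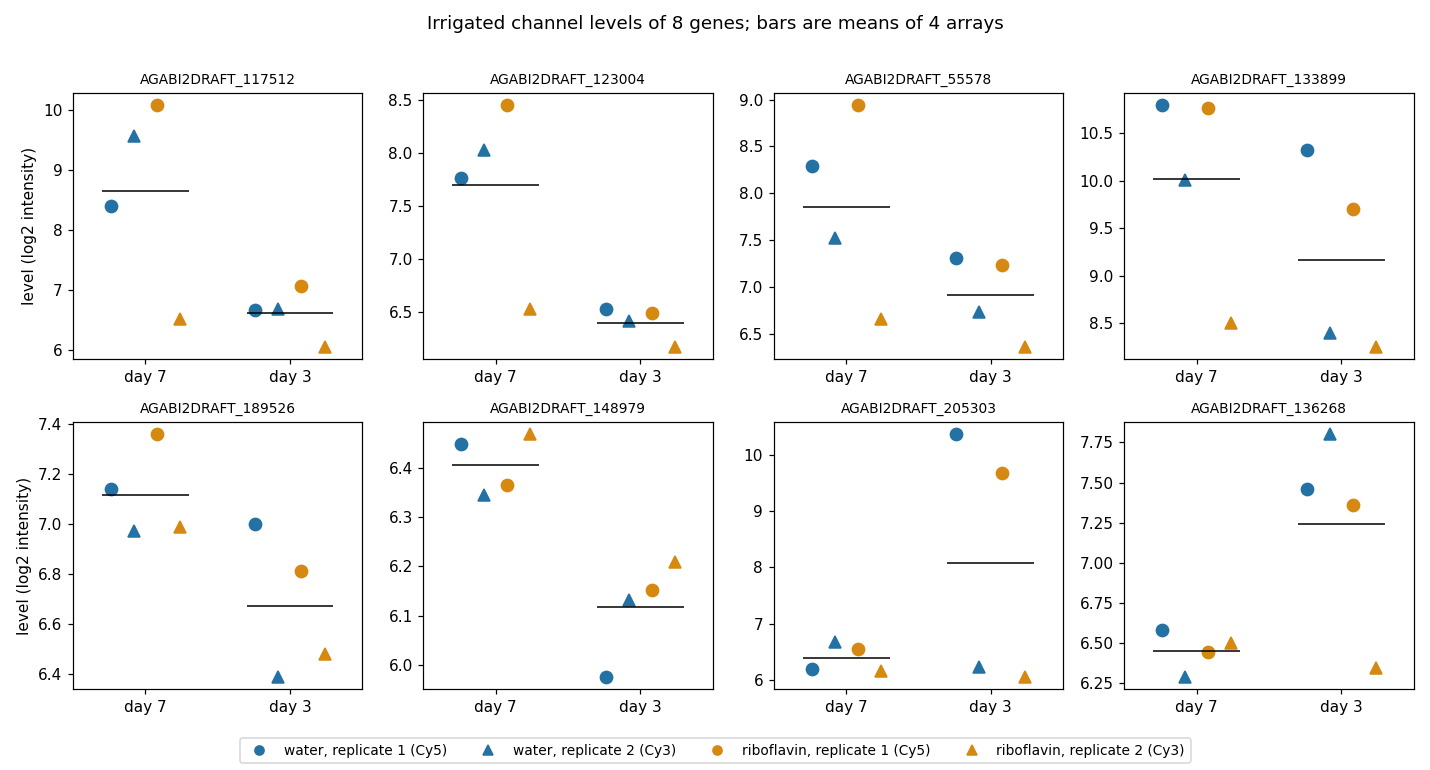
Log2 level in the irrigated channel of 8 genes on each array, day 7 left and day 3 right in each panel; colour marks the supplement, shape the replicate and dye, and the bar is the mean of 4 arrays. AGABI2DRAFT_123004 and AGABI2DRAFT_148979 have no overlap between days, and AGABI2DRAFT_205303 is high on 2 day 3 arrays, both Cy5.

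Another 6 genes made up the 10 largest positive differences among the 324 genes above background on at least 2 arrays of each day. AGABI2DRAFT_195733 had a log2 difference of 0.93 ± 0.34, AGABI2DRAFT_196091 of 0.92 ± 0.42, AGABI2DRAFT_195020 of 0.88 ± 0.32 and AGABI2DRAFT_139997 of 0.81 ± 0.34. AGABI2DRAFT_195733 was tested only because of water day 7, and AGABI2DRAFT_196091 only because of the day 7 groups of both supplements. Both were higher on that day, so their p-values are no independent support for the difference. In 8 of the 10 the riboflavin replicate 2 pair had the smallest difference, and 7 of the 10 were positive in all 4 pairs. AGABI2DRAFT_147031 (1.12 ± 1.15) was split by dye, with pair differences of -0.29 and -0.17 in the Cy5 pairs and 2.34 and 2.59 in the Cy3 pairs. AGABI2DRAFT_75878 (0.86 ± 0.37) was split by supplement, with -0.05 and 0.20 in the riboflavin pairs and 1.24 and 2.08 in the water pairs. Adjusted p-values of the 10 genes were 0.685 to 0.846.

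Among the negative differences, AGABI2DRAFT_205303 had the largest, -1.70 ± 0.86 (SE, limma adjusted p = 0.693). Its levels stood at 6.19, 6.66, 6.54 and 6.15 on day 7, against 10.36, 6.23, 9.68 and 6.05 on day 3. The 2 Cy5 arrays of day 3 were far above the other 6 arrays, which lay between 6.05 and 6.66, and the Cy3 pairs had small positive differences of 0.43 and 0.10. AGABI2DRAFT_186299 (-1.19 ± 1.17) ranged between 8.50 and 12.41 on day 7 and between 9.98 and 13.66 on day 3, with pair differences from -5.03 to 2.44.

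AGABI2DRAFT_136268 had a log2 difference of -0.79 ± 0.28 (SE, limma adjusted p = 0.685). It stood at 6.58, 6.29, 6.45 and 6.50 on day 7 and at 7.46, 7.80, 7.36 and 6.35 on day 3. All day 3 arrays but riboflavin replicate 2 were above every day 7 array. AGABI2DRAFT_196227 (-0.62 ± 0.24) was lower on day 7 in all 4 pairs, by as little as 0.02 in riboflavin replicate 2, as were AGABI2DRAFT_226130 (-0.63 ± 0.29) and AGABI2DRAFT_146038 (-0.60 ± 0.32). The remaining genes of the 10 largest negative differences, AGABI2DRAFT_64309, AGABI2DRAFT_192128, AGABI2DRAFT_177333 and AGABI2DRAFT_194940, lay between -0.79 and -0.57 with 1 pair of the opposite sign each. Adjusted p-values of the 10 genes were 0.685 to 0.835.

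**Figure D4:**
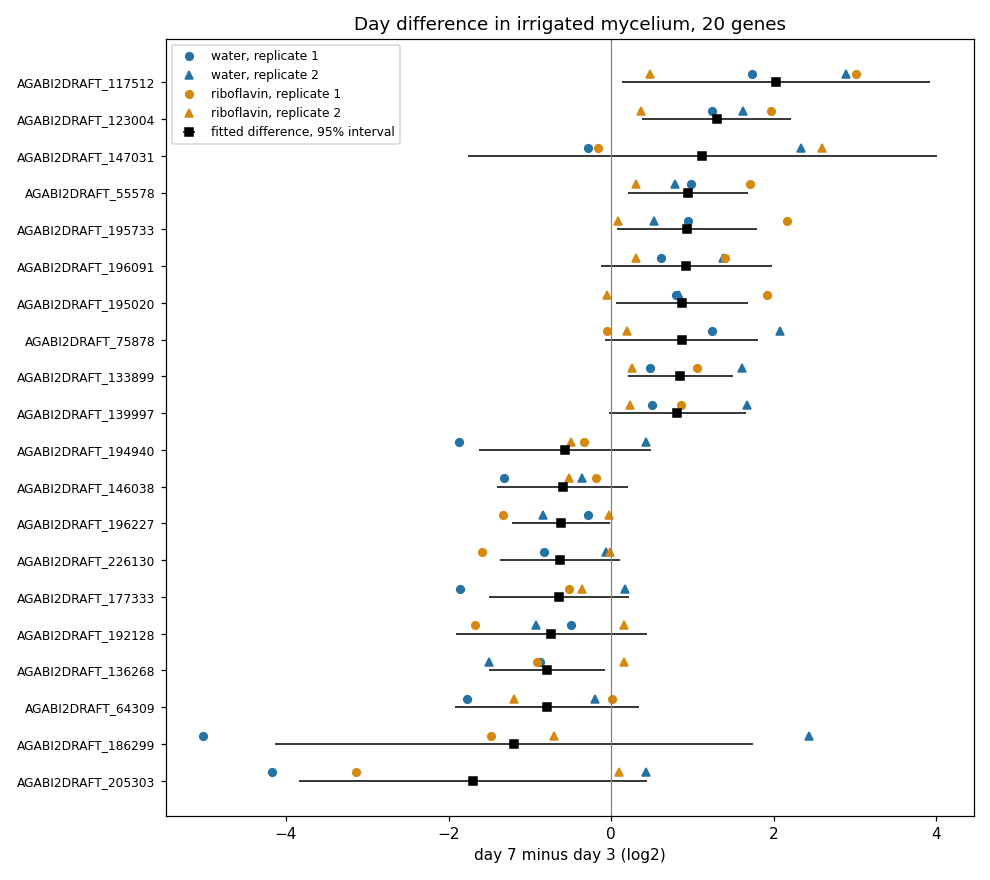
Log2 difference of day 7 minus day 3 in irrigated mycelium for the 10 largest positive and 10 largest negative genes; squares are the fitted difference with its 95% interval and coloured points the 4 pair differences. The intervals of 6 positive genes and of 2 negative genes leave out 0, before adjustment for 420 genes.

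The 5 genes with the smallest unadjusted p-values each had 1 sign in all 4 pairs, and their log2 differences were 0.29 to 0.72 in size. AGABI2DRAFT_189526 had 7.14, 6.97, 7.36 and 6.99 on day 7 and 7.00, 6.39, 6.81 and 6.48 on day 3, a log2 difference of 0.44 ± 0.10 (SE, limma adjusted p = 0.685). Only water replicate 1 of day 3 reached into the day 7 range. AGABI2DRAFT_148979 had 6.45, 6.34, 6.37 and 6.47 on day 7 and 5.98, 6.13, 6.15 and 6.21 on day 3, a log2 difference of 0.29 ± 0.08 with no overlap. It was well above background on 4 arrays of day 7 and 2 of day 3. AGABI2DRAFT_193554 (0.72 ± 0.18), AGABI2DRAFT_77212 (0.70 ± 0.19) and AGABI2DRAFT_194064 (-0.39 ± 0.10) completed the 5, all with an adjusted p of 0.685. With the other channel of the riboflavin replicate 2 arrays taken as the irrigated one, the difference of AGABI2DRAFT_193554 was -0.11 and that of AGABI2DRAFT_194064 was 0.04.

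Days did not overlap for 5 genes that were above on day 7 (1.20% of 417) and 3 that were below (0.719%). These were picked after their values were seen. Beside AGABI2DRAFT_123004 and AGABI2DRAFT_148979, the genes above were AGABI2DRAFT_121244 (0.62 ± 0.21), AGABI2DRAFT_190326 (0.21 ± 0.08) and AGABI2DRAFT_121081 (0.18 ± 0.08). AGABI2DRAFT_121244 had 7.24, 6.52, 6.55 and 7.02 on day 7, against 6.05, 6.30, 6.24 and 6.24 on day 3. The genes below were AGABI2DRAFT_186655 (-0.42 ± 0.16), AGABI2DRAFT_194585 (-0.25 ± 0.09) and AGABI2DRAFT_119910 (-0.20 ± 0.08). AGABI2DRAFT_194585 was tested only because of water day 3, and AGABI2DRAFT_119910 only because of riboflavin day 3, groups in which they were high. Each was well above background on 1 day 7 array, so their separation by day is no independent support for a difference. No gene was well above background on all 4 arrays of one day and on none of the other.

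Within each supplement, limma also called no gene. With riboflavin, 2 of 420 genes (0.476%) had an unadjusted p under 0.05, AGABI2DRAFT_193554 (0.92 ± 0.25) and AGABI2DRAFT_189526 (0.53 ± 0.15, SE, 2 arrays a day), both with an adjusted p of 1. The largest fitted differences there were those of AGABI2DRAFT_117512 (1.74 ± 1.18), AGABI2DRAFT_147031 (1.21 ± 1.82) and AGABI2DRAFT_123004 (1.16 ± 0.57) upwards and AGABI2DRAFT_205303 (-1.52 ± 1.34), AGABI2DRAFT_186299 (-1.09 ± 1.85) and AGABI2DRAFT_136259 (-0.88 ± 0.88) downwards. With water, 18 genes (4.29%) were under 0.05 before adjustment, and 8 of them were higher on day 7 (1.90%) and 10 lower (2.38%). The largest positive differences were in AGABI2DRAFT_117512 (2.31 ± 1.18), AGABI2DRAFT_191238 (1.75 ± 2.05) and AGABI2DRAFT_75878 (1.66 ± 0.26, adjusted p = 0.429). The largest negative ones were in AGABI2DRAFT_205303 (-1.87 ± 1.34), AGABI2DRAFT_186299 (-1.30 ± 1.85) and AGABI2DRAFT_136268 (-1.19 ± 0.36).

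The smallest p in water belonged to AGABI2DRAFT_200290, which was taken up after its values were seen. It had 6.25 and 6.07 on the water day 7 arrays and 7.13 and 7.20 on the water day 3 arrays (log2 difference -1.002 ± 0.12, adjusted p = 0.354). The riboflavin arrays lay between 5.92 and 6.02 on both days, none of them well above background. It was well above background on both water day 3 arrays and on 1 water day 7 array. It was therefore tested only because of water day 3, the group in which it was high, so its small p is no independent support for the difference. When all 10413 probes were tested, it was the 1 gene called within water (adjusted p = 0.0354). Without water day 3 replicate 1, 31 genes were called within water, 2 higher and 29 lower on day 7, which leaves water day 3 with 1 array that is assumed to vary like the other groups.

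Whether the day difference depended on the supplement was tested by the interaction, and limma called 0 of 420 genes, with 2 (0.476%) at an unadjusted p under 0.05. The largest values with riboflavin minus water below 0 were those of AGABI2DRAFT_191238 (-2.30 ± 2.90), AGABI2DRAFT_75878 (-1.58 ± 0.36) and AGABI2DRAFT_75525 (-1.19 ± 0.53). The largest above 0 were those of AGABI2DRAFT_146400 (1.27 ± 0.95), AGABI2DRAFT_121746 (1.20 ± 1.75) and AGABI2DRAFT_75392 (1.18 ± 0.84). Each had an adjusted p of 0.999, as did AGABI2DRAFT_200290 (1.05 ± 0.18). AGABI2DRAFT_75525 had 10.23, 10.31, 10.08 and 9.99 on day 7 and 9.56, 8.28, 9.99 and 9.78 on day 3. Its lowest 2 arrays were those of water day 3. In AGABI2DRAFT_75878 too the water day 3 arrays were lowest, with 10.46, 10.34, 9.94 and 9.84 on day 7 and 9.22, 8.26, 9.99 and 9.64 on day 3. For AGABI2DRAFT_121746 the riboflavin pairs differed by 0.18 and 0.15, whereas the water pairs differed by 0.70 in replicate 1 and -2.76 in replicate 2.

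The drought channel of the same arrays gave a further reference. Its own day difference called 0 of the 420 genes, with 34 (8.10%) at an unadjusted p under 0.05, of which 13 were higher (3.10%) and 21 lower on day 7. A test of the day difference on the irrigated-over-drought ratio, which compares both channels within an array, likewise called 0, with 18 (4.29%) at an unadjusted p under 0.05, 11 of them positive (2.62%) and 7 negative (1.67%). Of the 10 genes with the largest positive irrigated differences, drought-channel differences lay between -0.35 and 0.32. Their difference of ratios lay between 0.20 and 1.48, with limma adjusted p-values of 0.830 to 0.982. For the 10 largest negative ones these lay between -0.26 and 1.00 and between -1.78 and -0.18 (limma adjusted p-values of 0.830 to 0.958). Both sets were picked by their irrigated differences, so the common sign of their ratio differences is no independent support. AGABI2DRAFT_117512 had 0.10 ± 0.53 in the drought channel and 1.48 ± 0.93 in the ratio (SE). AGABI2DRAFT_194064 had 0.83 ± 0.37 in the drought channel, opposite in sign to its irrigated difference, and -1.24 ± 0.30 in the ratio with an adjusted p of 0.830. No day difference was thus shown to be particular to irrigated mycelium.

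Beside day, the same fit held a supplement and a dye term. For supplement, 90 of 420 genes (21.4%) were under 0.05 before adjustment, 26 higher (6.19%) and 64 lower (15.2%) with riboflavin than with water, and 1 (0.238%) was called, AGABI2DRAFT_195355, at 2.86 log2 units higher with riboflavin. For the dye term 48 genes (11.4%) were under 0.05 before adjustment, 37 higher (8.81%) and 11 lower (2.62%) with Cy5 than with Cy3, and 0 were called.

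The brightest 3 genes kept nearly the same place on both days. Quantile normalization sets the level of the top genes by rank, so their net signals are given. AGABI2DRAFT_75870 had 372490, 155176, 326844 and 172202 on day 7 and 234928, 144192, 287070 and 110410 on day 3. Its net signal was higher on day 7 in all 4 pairs, whereas its normalized difference was -0.02 ± 0.12, and it was 0.37 with median centring. AGABI2DRAFT_75612 had nearly the same net signals, 375537, 156326, 330218 and 169564 on day 7 and 238619, 141446, 284691 and 108321 on day 3. It is uncertain whether the 2 probes read separate transcripts. AGABI2DRAFT_187811 had 196746, 202270, 187792 and 77923 on day 7 and 161569, 64469, 238456 and 78822 on day 3, with no common direction over the pairs (0.17 ± 0.82 after normalization).

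**Figure D5:**
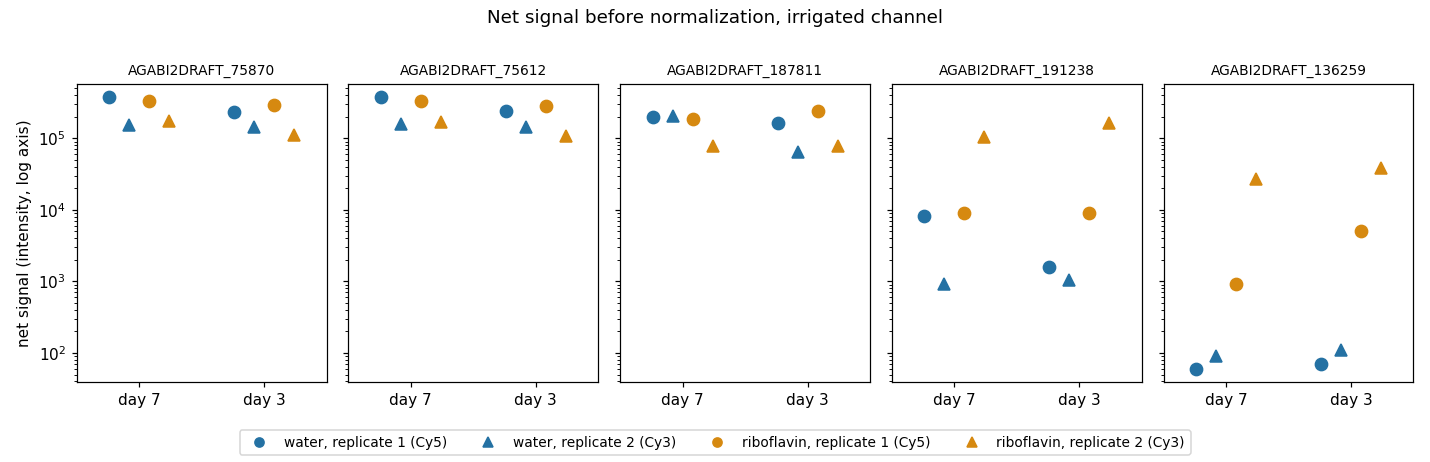
Net signal (log axis) before normalization in the irrigated channel of the 3 brightest genes and of AGABI2DRAFT_191238 and AGABI2DRAFT_136259, day 7 left and day 3 right in each panel. The last 2 genes are highest in riboflavin replicate 2 on both days and differ far more between arrays of one day than between days.

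The 5 genes of largest SD over the 8 channels were spread more widely between arrays of one day than between days. AGABI2DRAFT_191238 had net signals of 8156, 907, 8973 and 104137 on day 7 and 1604, 1053, 8964 and 163345 on day 3. Riboflavin replicate 2 was its brightest array on both days, and its log2 difference was 0.60 ± 1.39. AGABI2DRAFT_136259 had 60.0, 91.3, 912 and 26624 on day 7 and 70.5, 109, 5070 and 38743 on day 3 (log2 difference -0.46 ± 0.59). AGABI2DRAFT_195860 and AGABI2DRAFT_194625 were likewise brightest in riboflavin replicate 2, with levels of 11.32 and 11.02 on day 7 and of 11.32 and 10.59 on day 3. The drought channel of both riboflavin replicate 2 arrays, normalized with the other drought channels, had 6.92 (AGABI2DRAFT_195860), 7.28 (AGABI2DRAFT_194625) and 8.61 (AGABI2DRAFT_136259) on day 7, and 6.69, 6.87 and 9.52 on day 3. The irrigated channel of riboflavin replicate 1 had 7.06, 6.78 and 9.51 for the same genes on day 7, and 8.68, 8.46 and 11.27 on day 3. Taking the drought channel of replicate 2 as irrigated would bring the riboflavin replicates closer for AGABI2DRAFT_195860 and AGABI2DRAFT_194625 on both days. For AGABI2DRAFT_136259 it would do so on day 7. On day 3 its labelled channel (13.01) and its drought channel (9.52) lay about equally far from riboflavin replicate 1 (11.27). For AGABI2DRAFT_121746 on day 7 the drought channel (5.87) lay farther from riboflavin replicate 1 (7.46) than the labelled channel (6.07). On day 3 the drought channel (6.10) lay nearer to riboflavin replicate 1 (7.28) than the labelled channel (5.93). For AGABI2DRAFT_191238 the drought channel lay nearer on both days, with 12.32 on day 7 and 12.87 on day 3. Its labelled channel had 15.50 and 17.77, and riboflavin replicate 1 had 13.77 and 12.61. These genes were picked for their large SD, and whether the channels were exchanged was not tested. On the water arrays AGABI2DRAFT_195860 was not well above background on either day. AGABI2DRAFT_121746 ran the other way, with 9.99, 9.62, 7.46 and 6.07 on day 7 and 9.29, 12.38, 7.28 and 5.93 on day 3. It was high in water and near background in riboflavin replicate 2.

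Of the 4 tested genes with a symbol, 3 belong to the respiratory chain, the row of mitochondrial complexes that passes electrons to oxygen. CytC2 (AGABI2DRAFT_135048), a cytochrome c by its symbol, the small carrier that brings electrons to the last complex, had 8.26, 8.25, 8.86 and 8.15 on day 7 and 7.92, 6.97, 9.57 and 7.59 on day 3. Its day 7 arrays lay within the range of its day 3 arrays, and its log2 difference was 0.37 ± 0.36 (SE, limma adjusted p = 0.835). In the drought channel its day difference was 1.74 ± 0.63, and the irrigated-minus-drought difference of ratios was -1.22 ± 0.77 (adjusted p = 0.865).

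SDH1 (AGABI2DRAFT_190526) and SDH2 (AGABI2DRAFT_195434) carry the names of the FAD-bearing and the iron-sulfur subunit of succinate dehydrogenase, which feeds electrons from the citric acid cycle into the chain. SDH1 had 6.46, 6.73, 6.53 and 9.29 on day 7 and 6.92, 6.56, 7.54 and 8.99 on day 3, highest in riboflavin replicate 2 on both days (log2 difference -0.25 ± 0.51, adjusted p = 0.915). SDH2 had 6.27, 6.30, 6.36 and 5.99 on day 7 and 5.99, 5.96, 6.18 and 5.96 on day 3. It was well above background on 3 of 4 day 7 arrays and on 0 of 4 day 3 arrays. Its log2 difference was 0.21 ± 0.10 (SE, limma adjusted p = 0.693), with a 95% interval of -0.05 to 0.47 that includes 0. SDH2 was tested only because of water day 7, a group in which it was detected, and its p is no independent support for the difference. Against the lowest signal detected on each day 3 array, or the probe's own signal there where that is higher, its day 7 mean over all 4 arrays was 1.15-fold higher. This figure takes no account of the spread between arrays. Fet3 (AGABI2DRAFT_225781), named like a copper-dependent iron oxidase of Saccharomyces cerevisiae, was near background throughout, above it on 0 day 7 and 2 day 3 arrays. Both were water day 3 arrays, so Fet3 was tested only because of that group. Its mean level was 5.995 ± 0.16 on day 7 and 6.08 ± 0.17 on day 3 (SD, n = 4 each, limma adjusted p = 0.835).

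In total 56 probes carried respiratory chain symbols. Of these 7 (12.5%) were above background on at least 1 array, beside 1402 of all 10413 probes (13.5%). The 3 that were tested, with 0 called, had log2 differences of 0.37 (CytC2), -0.25 (SDH1) and 0.21 (SDH2). Their median is the value of SDH2, which was tested only because of water day 7, so it is no support for a difference. The median over all tested genes was -0.011. The lignin-attacking enzymes that mark vegetative mycelium gave no tested gene. Of 6 laccases (lcc1, lcc2, lcc3, lcc9, lcc10 and lcc12) and the manganese peroxidase MnP, only MnP was above background, on 1 day 3 array. This is 1 of 7 probes (14.3%), near the share over all probes. So lcc1 and lcc2 gave no check of the labelled tissue, and no hydrophobin or cellulase symbol was found. Of 5 heat shock symbols (hspA to hspE), hspD alone was above background, on 1 day 7 and 1 day 3 array. Catalases CAT1 and CAT3, which break down hydrogen peroxide, were above it on no array. No symbol matched the lists for flavin and vitamin B2 metabolism, carbon stores, nitrogen use, translation and housekeeping, phenol oxidases, cytochrome P450, or mating type and development. In whole-mycelium RNA a smaller share of one kind of hypha and less RNA per cell cannot be told apart.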

How the data were processed

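Per the labels, total RNA was dye-labelled (Low Input Quick Amp kit) and hybridised to 8 2-colour arrays. The deposited scanner tables give spot and background intensity per channel and come from Feature Extraction 11.5.1.1, per the file headers, which place all 8 arrays on 1 slide. They also hold processed intensity values and a log10 ratio of the authors' scans. A further deposited table holds log2 ratios. The submitters' processing notes name limma, and these deposited log2 values equal limma's normexp with an offset of 16 followed by loess, with column medians of -0.00308 to 0.00615, in the direction red over green.

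Median signals of the irrigated channel were corrected with limma's normexp (offset 50), quantile normalized over the 8 channels, and averaged over spots of 1 gene (10413 probes, 4795 with 2 spots) in limma 3.58.1 under R 4.3.3. Control spots and outlier-flagged spots were left out. No spot was saturated. Gene numbers of 10348 probes matched a locus tag of assembly Agabi_varbisH97_2, and 88 had a symbol. No build is named for the array, so no coordinates are given.

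LmFit and eBayes were fitted to 420 genes with terms for day, supplement and dye. The dye term is also the replicate block. The fit had 4 residual degrees of freedom and eBayes contributed 1.49 (3 and 1.42 with 1 term per group). Errors are limma standard errors. P-values were adjusted by Benjamini-Hochberg over the 420 genes. The same numbered replicates share a dye. Their deviations from the group means correlated at 0.78 (riboflavin, day 7 with day 3) and -0.28 (water). For 3 tested genes, none of them named, 1 array was missing. The fits were checked on simulated data. The number of arrays limits the precision.

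Genes named were the 10 largest differences in each direction among genes above background on at least 2 arrays of each day, the 5 smallest p-values, the 3 largest in each direction within supplements and for the interaction, the 3 brightest, the 5 of largest SD and all with a symbol. Genes outside this rule are marked as chosen after their values were seen. The comparison, the lists and the rule were chosen with earlier results of these data known.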

Additional observations from a re-analysis of the deposited data

Results flagged for a closer look

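In 84 sets of 4 arrays of one day (40 named genes and 2 array measures, on each day), the array farthest out was set against the range by Dixon's criterion, and 11 sets were past its 95% critical value. That value is set so that chance passes about 1 in 20 groups, but most of the genes were named for their differences, their spread or their brightness, so this rate does not apply to the count of 11. Riboflavin replicate 2 was the array in 7 of the 11.

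On day 7, riboflavin replicate 2 stood above the other 3 arrays for AGABI2DRAFT_194625 (11.02, others 6.04 to 6.78), SDH1, AGABI2DRAFT_190526 (9.287, others 6.46 to 6.73) and AGABI2DRAFT_196227 (8.079, others 6.598 to 6.75). It stood below them for AGABI2DRAFT_187811 (13.66, others 17.12 to 17.81). On day 3 it stood below the others for the brightest genes AGABI2DRAFT_187811 (13.66, others at 17.12), AGABI2DRAFT_75612 (15.76, others 17.69 to 17.74) and AGABI2DRAFT_75870 (17.39, others 17.69 to 17.74). These top levels are set by rank.

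Riboflavin replicate 1 was the highest of the 4 arrays for CytC2, AGABI2DRAFT_135048, on day 7 (8.857, others 8.15 to 8.26) and for SDH2, AGABI2DRAFT_195434, on day 3 (6.175, others 5.96 to 5.99). Water day 3 replicate 2 was the lowest day 3 array for AGABI2DRAFT_139997 (8.458, others 10.20 to 10.48). Water day 3 replicate 1 was the highest for AGABI2DRAFT_177333 (9.233, others 7.86 to 7.999).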

How the results depend on the processing

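The day difference of irrigated mycelium called 0 genes under all 22 alternatives, with 7 to 539 at an unadjusted p under 0.05. The count of 539 arose when all 10413 probes were tested in place of the 420, so it is not a count among those 420. Without the replicate block the day difference called 0 (16 unadjusted, smallest adjusted p 0.882). With a replicate block within each supplement, added after the data were seen, it also called 0 (31 unadjusted, smallest adjusted p 0.491). The smallest adjusted p of any alternative was 0.0503, with the 2 arrays of a group counted as 1 value, and it was 0.165 without riboflavin day 7 replicate 2. The comparison within riboflavin, the interaction and the irrigated-minus-drought difference also called 0 under every alternative run (17, 17 and 14). Within water, testing all probes called 1 gene, and leaving out single arrays gave 0 to 31 calls, with 31 without water day 3 replicate 1. Leaving out single arrays moved the day difference in probes above background between -175 and -64.4, and that in the share of the 3 brightest between -2.07 and 11.2 percentage points.

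Of the 40 named genes, none was called under any alternative of the day difference, and 12 turned sign in at least 1. AGABI2DRAFT_75870 was 0.48 with loess and Aquantile, 0.37 with median centring and 0.86 with processed signals. With the riboflavin replicate 2 channels turned, AGABI2DRAFT_193554 was -0.11 and AGABI2DRAFT_194064 was 0.041. Leaving out single arrays gave AGABI2DRAFT_191238 -0.50 to 2.01, AGABI2DRAFT_136259 -0.88 to 0.15, AGABI2DRAFT_146400 -0.82 to 0.095, AGABI2DRAFT_121746 -1.06 to 0.49, AGABI2DRAFT_75392 -0.75 to 0.13, AGABI2DRAFT_75870 -0.11 to 0.061, AGABI2DRAFT_187811 -0.43 to 0.69, AGABI2DRAFT_195860 -1.02 to 0.22, AGABI2DRAFT_194625 -0.999 to 0.39 and AGABI2DRAFT_190526 -0.66 to 0.21. The causes were not tested. Most genes were near background, where differences are compressed.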
